A study of Mus musculus with 10 samples.

Results

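The cell cycle and DNA replication genes described here are 46 mouse genes chosen by function, from the cyclin-dependent kinases (CDKs) and the mitotic kinases to the replication helicase and the enzymes of nucleotide supply. Their chromatin contacts were read from promoter-capture Hi-C, which ligates crosslinked chromatin fragments to their neighbours in the nucleus and enriches the ligated products that carry a promoter. A captured HindIII fragment (a bait) was given to a gene when it held the start or the end of that gene on build mm10. By this rule 39 of the 46 genes lay on 43 of the 13008 baits listed on the autosomes and X. Cdk4, Cdk6, Ccna2, Cdkn1a, E2f2, Tyms and Nusap1 had no listed bait and were not analysed. Cdk2, Ccnb1, Top2a and Cdc6 had 2 baits each.

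The 10 libraries came from C57BL/6 mice and form 5 groups of 2 biological replicates. Of the haematopoietic stem and progenitor cells (HSPCs), the Npm1c group had the genotype Npm1flox-cA/+ with Mx1-Cre+, the Flt3-ITD group was Flt3ITD/+, the double mutants (DM) carried Npm1flox-cA/+, Flt3ITD/+ and Mx1-Cre+, and the controls were wild type (WT). Npm1c is a frameshift form of nucleophosmin that is held in the cytoplasm, and Flt3-ITD is a tandem duplication that leaves this receptor kinase signalling without its ligand; both occur together in acute myeloid leukaemia. Neutrophils came from WT marrow. The labels name no Cre for the Flt3-ITD and WT groups, and they give no age, sex or induction schedule. Mx1-Cre responds to interferon and acts in many cell types, so recombination is not limited to HSPCs. Lineage-negative marrow cells were enriched with a depletion kit and neutrophils with an isolation kit, so a shift in the mixture of cells and a shift within each cell cannot be told apart.

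A cell copies its DNA in S phase and divides in M phase. CDKs, which work only when bound to a cyclin, drive these steps, and CDK inhibitors hold them back. Before S phase Cdc6 and Cdt1 load the MCM helicase onto origins, ribonucleotide reductase supplies the deoxynucleotides, and E2F factors switch on many of the genes involved. In mitosis the Polo and Aurora kinases, the spindle checkpoint and the proteins of centromere, spindle and midzone separate the chromosomes. In the marrow, progenitors divide and mature neutrophils no longer do.

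Each deposited value is an interaction score for 1 pair of a bait and another HindIII fragment in 1 library. It has no unit and is never negative. A pair is in the HSPC list because 1 HSPC group or more had it at 5 or higher in each replicate, and in the neutrophil libraries every listed pair scored 5 or more in both replicates. A pair at 5 or more in both replicates of a group is called a contact of that group. A pair absent from the neutrophil list has no neutrophil score, and a pair found only there has no HSPC score. Over all pairs of the HSPC list, Flt3-ITD libraries had 64.1% and 64.0% of pairs at 5 or more and WT HSPC libraries 53.4% and 46.9%, with the Npm1c and DM libraries between 51.8% and 61.8%. In markers of other cell types, 8 of 10 neutrophil genes had a bait and held 32 contacts in Npm1c, 36 in Flt3-ITD, 53 in DM, 62 in neutrophils and 23 in WT HSPCs. These markers did not move together: in neutrophils and WT HSPCs Mmp8 had 24 and 6 and Retnlg 22 and 0, but S100a8 had 6 and 8 and S100a9 5 and 8. Of 8 progenitor markers 5 had a bait, with 14 contacts in Npm1c, 18 in Flt3-ITD, 14 in DM, 5 in neutrophils and 5 in WT HSPCs, and Kit, Cd34 and Hoxa9 had none to check. Erythroid markers, with 4 of 5 genes on a bait, held 7 in Npm1c, 13 in Flt3-ITD, 7 in DM, 3 in neutrophils and 14 in WT HSPCs. The part of these markers in the results below was not tested.

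The cell cycle baits had 522 listed pairs, of which 457 were in the HSPC list and 65 in the neutrophil list alone. Npm1c HSPCs had 207 contacts, Flt3-ITD HSPCs 262 and DM HSPCs 204, against 186 in WT HSPCs. Relative to WT HSPCs these are ratios of 1.11, 1.41 and 1.10, beside 1.2, 1.47 and 1.4 over all listed baits. Neutrophils had 158, a ratio of 0.85 to WT HSPCs, beside 0.83 over all baits. At a score of 7 the cell cycle genes had 62 contacts in neutrophils and 62 in WT HSPCs, and at 10 they had 21 and 18. The order of the neutrophil and WT HSPC counts thus depended on the threshold. The ratio was 1.0 at 7 and 1.17 at 10, and over all baits it also rose, to 0.89 and 0.95.

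Of the cell cycle baits with a contact in either group, 41.7% had more in Npm1c than in WT HSPCs and 38.9% fewer, beside 51.1% and 33.7% of all such baits. In Flt3-ITD HSPCs 68.4% had more and 15.8% fewer, beside 59.7% and 27.0% of all baits. In DM HSPCs 55.0% had more and 30.0% fewer, beside 56.6% and 31.4%, and in neutrophils 41.7% had more and 52.8% fewer, beside 36.3% and 53.8%. Of the 457 HSPC pairs, 238 were contacts of 1 HSPC group, 96 of 2, 63 of 3 and 60 of all 4. The same split over all baits is not given here, so these counts show no trait particular to cell cycle genes. Neutrophils and WT HSPCs shared 54 contacts, which was 34.2% of the neutrophil and 29.0% of the WT HSPC contacts of these genes, beside 30.9% and 25.6% over all baits. Between the 2 ends of a contact lay a median of 229 kb in Npm1c, 226 kb in Flt3-ITD, 234 kb in DM, 171 kb in neutrophils and 215 kb in WT HSPCs. Over all baits it was 200, 205, 204, 160 and 183 kb in the same groups, shorter in each. The share of contacts that joined a second bait was 17.9% in Npm1c, 19.1% in Flt3-ITD, 22.5% in DM, 22.2% in neutrophils and 21.5% in WT HSPCs, below the 24.3%, 24.0%, 26.7%, 31.7% and 32.3% of all baits.

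**Figure D1:**
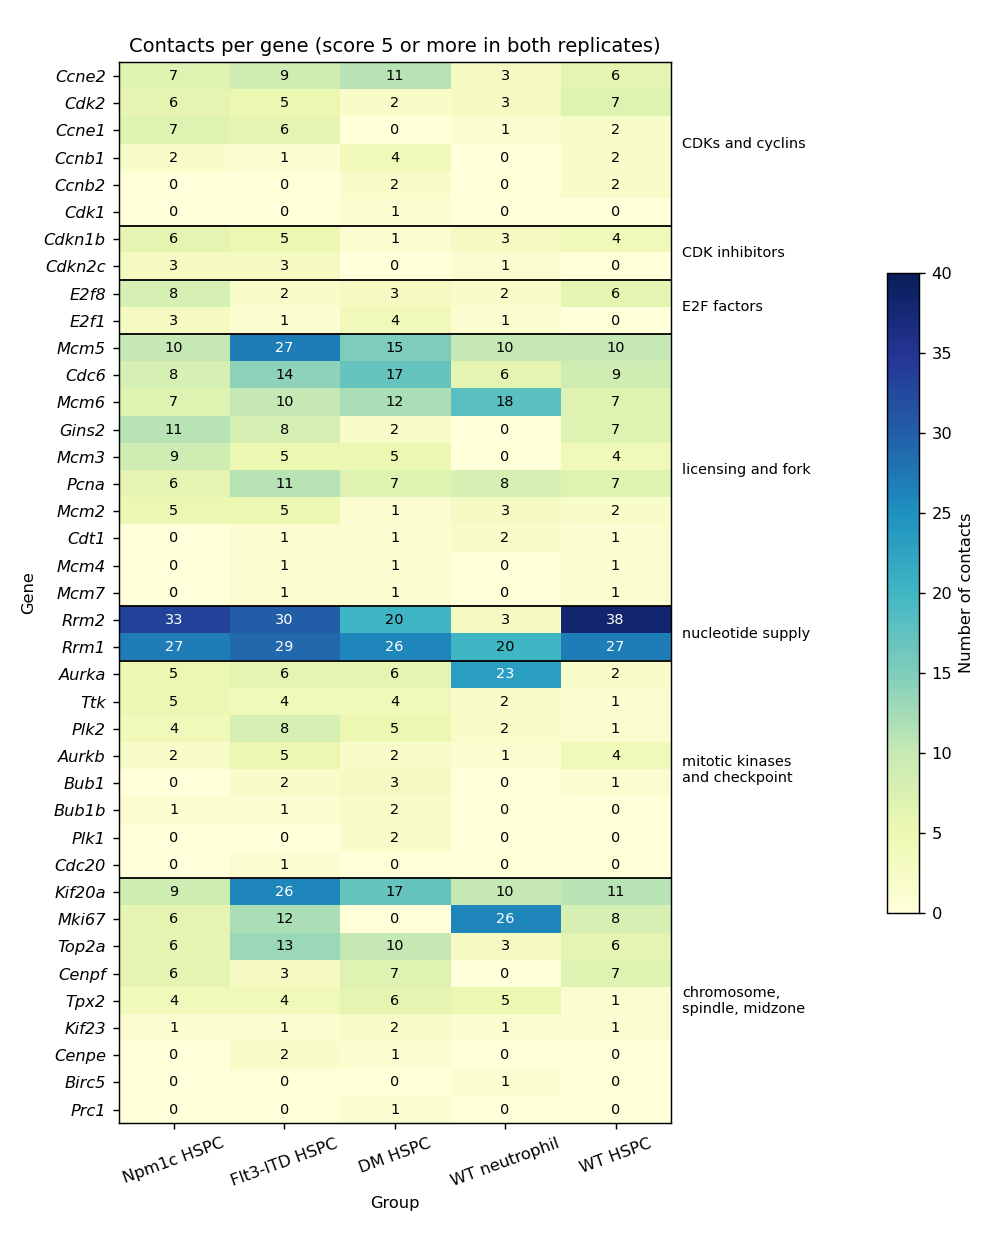
Number of contacts (pairs at a score of 5 or more in both replicates) of each of the 39 genes with a listed bait, in the Npm1c, Flt3-ITD and DM HSPCs, neutrophils and WT HSPCs. Rrm2 has 3 contacts in neutrophils and 20 to 38 in the HSPC groups, while Aurka has 23 and Mki67 26 in neutrophils.

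Baits were compared on the mean of log2(score + 1) over their usable pairs, which were selected by HSPC groups outside the comparison, or, for neutrophils, contacts of both WT cell types. A bait needed at least 3 such pairs, which 30 of the 43 cell cycle baits had in the comparison of Npm1c with WT HSPCs, 29 for Flt3-ITD, 28 for DM and 7 for neutrophils. The mutant comparisons share the 2 WT HSPC libraries, and the groups that selected their pairs were themselves mutants, which can favour pairs higher in mutants. With limma and Benjamini-Hochberg adjustment over all baits tested, none of these cell cycle baits passed an adjusted p of 0.05 in any mutant comparison, and 1 of 7, Rrm2, passed in neutrophils. At an unadjusted p under 0.05, 4 of 30 were higher in Npm1c and 0 lower, while 5.33% and 0.443% of all 6318 baits were; none of these 6318 passed after adjustment.

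In Flt3-ITD HSPCs 4 of 29 cell cycle baits were higher at an unadjusted p under 0.05 and 0 lower, and over all 6198 baits 18.2% and 0.5% were. Of those 6198 baits, 0.0484% passed after adjustment as higher. In DM HSPCs 3 of 28 were higher and 1 lower unadjusted, against 13.7% and 4.19% of 5866 baits, of which 0.153% passed as higher and 0.0341% as lower after adjustment. In neutrophils 1 of 7 was higher and 1 lower unadjusted, against 11.1% and 10.6% of 874 baits, and after adjustment 2.17% were called higher and 1.26% lower. The median difference over the cell cycle baits tested was 0.15 in Npm1c, 0.27 in Flt3-ITD, 0.07 in DM and 0.03 in neutrophils on the log2 scale. Over all baits it was 0.13, 0.24, 0.10 and 0.02. After quantile normalization the median over all baits was -0.01 in Npm1c, -0.03 in Flt3-ITD, -0.08 in DM and -0.24 in neutrophils, and that over the cell cycle baits was -0.01, -0.00493, -0.10 and -0.23, so a small difference has no settled direction. The 19 higher and 11 lower calls among all baits in neutrophils became 12 and 134 under that scaling, and the 9 and 2 in DM became 4 and 5.

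Both libraries lay above both WT HSPC libraries at 8 cell cycle baits in Npm1c and below them at 3, while 28.1% and 7.63% of all baits did so. In Flt3-ITD HSPCs 11 lay above and 2 below, beside 46.3% and 5.86% of all baits. In DM HSPCs 7 lay above and 7 below, beside 33.1% and 16.5%. In neutrophils 2 lay above and 3 below, beside 26.8% and 24.4%.

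**Figure D2:**
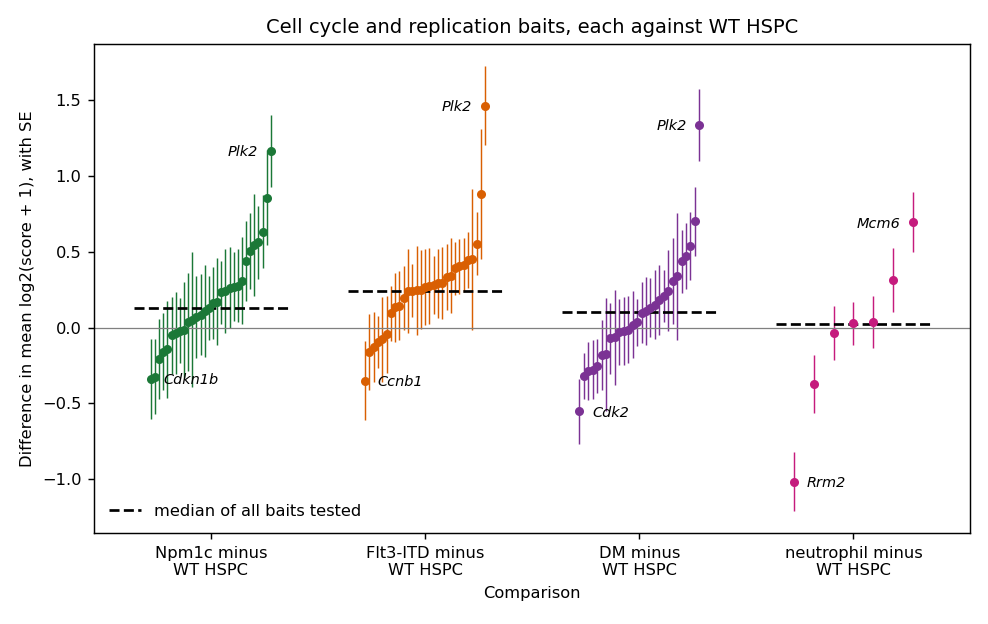
Difference in the mean of log2(score + 1) against WT HSPCs, with its standard error from limma, for each cell cycle bait tested in Npm1c, Flt3-ITD, DM and neutrophils, 4 libraries per comparison. The dashed line is the median of all baits tested; Plk2 lies farthest above it in each mutant group, and Rrm2 farthest below it in neutrophils.

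The promoters of 5 genes are given here because the results below turn on them: among the cell cycle baits Rrm2 has the largest difference in neutrophils and Plk2 in each mutant, and Mki67, Aurka and Mcm6 are, with Rrm1, the loci with the most contacts in neutrophils. Each is the 250 bases before the RefSeq gene start on GRCm38.p6, read 5′ to 3′ along the gene, and each lies in its bait in part or whole. Rrm2 is on chr12:24708004-24708253 (plus strand), Plk2 on chr13:110394794-110395043 (plus), Aurka on chr2:172370571-172370820 (minus), Mki67 on chr7:135716380-135716629 (minus) and Mcm6 on chr1:128359706-128359955 (minus). Capitals mark letters known from cell cycle promoters: the E2F letters TTCCCGC, their variant TTGGCGC and the further variant TTCGCGC, the CHR letters TTTGAA and their variant TTCGAA, and the CCAAT box. Each was searched on both strands.
Rrm2: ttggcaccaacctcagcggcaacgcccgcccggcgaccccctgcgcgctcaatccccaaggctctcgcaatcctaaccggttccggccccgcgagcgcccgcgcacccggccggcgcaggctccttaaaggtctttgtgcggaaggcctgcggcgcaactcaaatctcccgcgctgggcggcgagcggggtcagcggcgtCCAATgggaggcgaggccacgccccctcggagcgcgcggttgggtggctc
Plk2: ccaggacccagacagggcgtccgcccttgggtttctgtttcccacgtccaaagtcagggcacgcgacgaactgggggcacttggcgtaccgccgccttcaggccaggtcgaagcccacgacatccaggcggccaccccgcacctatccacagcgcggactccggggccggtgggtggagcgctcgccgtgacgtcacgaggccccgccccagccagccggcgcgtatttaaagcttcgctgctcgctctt
Aurka: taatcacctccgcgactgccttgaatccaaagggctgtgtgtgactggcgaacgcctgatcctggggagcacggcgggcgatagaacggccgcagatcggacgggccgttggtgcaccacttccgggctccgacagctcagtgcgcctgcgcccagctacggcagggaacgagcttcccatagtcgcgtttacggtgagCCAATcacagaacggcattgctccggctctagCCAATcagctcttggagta
Mki67: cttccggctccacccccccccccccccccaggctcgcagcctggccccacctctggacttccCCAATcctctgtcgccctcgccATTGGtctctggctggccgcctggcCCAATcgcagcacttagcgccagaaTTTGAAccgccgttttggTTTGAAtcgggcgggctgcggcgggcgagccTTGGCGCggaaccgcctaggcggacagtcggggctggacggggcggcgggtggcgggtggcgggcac
Mcm6: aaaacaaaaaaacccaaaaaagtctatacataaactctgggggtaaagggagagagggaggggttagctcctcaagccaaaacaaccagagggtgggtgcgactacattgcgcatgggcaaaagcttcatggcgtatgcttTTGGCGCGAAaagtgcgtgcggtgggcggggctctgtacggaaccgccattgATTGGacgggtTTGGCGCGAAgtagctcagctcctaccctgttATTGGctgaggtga
In the printed bases Mcm6 holds 2 stretches in which TTGGCGC overlaps TTCGCGC of the other strand, together with 2 CCAAT boxes. There Mki67 holds 1 E2F match, 2 CHR matches and 3 CCAAT boxes, Aurka holds 2 CCAAT boxes, Rrm2 holds 1, and Plk2 holds none of these letters. After the start, outside the printed bases, Aurka has a CHR match at bases 33 to 38 and Mcm6 an E2F match at bases 25 to 31. Of the 46 genes 39 had a RefSeq window from 250 bases before to 50 after the start, and of these windows 35.9% held E2F letters, 38.5% CHR letters and 69.2% CCAAT. Over 26794 genes with 1 such window each, the shares were 8.3%, 19.1% and 38.0%. The 39 genes with a window are not the same genes as the 39 with a bait. Cdk4, Cdk6, Cdkn1a, E2f2, Tyms and Nusap1 had a window but no bait. Ccne2, Aurkb, Mcm4, Gins2, Kif20a and Tpx2 had a bait but no window. A match shows only that the letters are present, and no binding was measured.

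Of the mitotic kinases and checkpoint genes, 8 baits held 17 contacts in Npm1c, 27 in Flt3-ITD, 24 in DM, 28 in neutrophils and 9 in WT HSPCs. Plk2, a Polo-like kinase of centriole duplication and the response to stress, had 4 contacts in Npm1c, 8 in Flt3-ITD, 5 in DM, 2 in neutrophils and 1 in WT HSPCs, all between 510 and 1021 kb from its promoter (bait chr13:110395025-110395247). None of those fragments held the start or end of a gene. In Npm1c HSPCs the mean log2(score + 1) over 10 usable pairs was 2.67 and 2.67, against 1.31 and 1.70 in WT HSPCs. Both Npm1c libraries were above both WT libraries, and the difference was 1.17 (SE 0.24, limma adjusted p = 0.651).

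In Flt3-ITD HSPCs Plk2 averaged 2.94 and 3.07 over 7 usable pairs, against 1.18 and 1.91 in WT HSPCs. In DM HSPCs it averaged 3.01 and 2.53 over 8 usable pairs, against 1.28 and 1.58 in WT HSPCs. The groups did not overlap in either case, and the differences were 1.46 (SE 0.26, limma adjusted p = 0.0853) in Flt3-ITD and 1.34 (SE 0.24, limma adjusted p = 0.0564) in DM HSPCs. With all 10 of its listed pairs the adjusted p was 0.0099 in Flt3-ITD and 0.00991 in DM HSPCs, a setting in which the groups compared also selected the pairs. In Flt3-ITD it was 0.0257 when its own replicate 1 was left out, 0.106 when its replicate 2 was, 0.0232 without WT HSPC replicate 1 and 0.00762 without WT HSPC replicate 2. It was 0.137 after quantile normalization and 0.121 with a pseudocount of 0.5. In DM each of the 4 left-out libraries gave 0.0693 to 0.583. With only baits of at least 10 usable pairs and no trend it was 0.031 in Npm1c HSPCs. Plk2 was the cell cycle bait with the smallest p in each mutant comparison, and whether it passed the threshold depended on the setting.

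Of the single Plk2 pairs, 2 were called in the test of pairs. The pair with chr13:110958981-110960726, 565 kb away, scored 2.5 and 5.7 in Npm1c, 5.4 and 8.1 in Flt3-ITD, 14.5 and 5.7 in DM and 0 and 0 in WT HSPCs. It was higher in DM than in WT HSPCs by 3.35 (SE 0.49, limma adjusted p = 0.0359) and had no score in neutrophils. The pair with chr13:110904392-110904953 scored 3.4 and 3.6 in Npm1c, 6.1 and 5.2 in Flt3-ITD, 3.1 and 4.8 in DM and 0.7 and 0 in WT HSPCs, a difference of 2.35 in Flt3-ITD, and Flt3-ITD alone brought it into the list. The 1 Plk2 pair that was a contact in WT HSPCs, at 567 kb, was also a contact in the other 4 groups. It scored 7.5 and 13.2 in Npm1c, 10.8 and 7.5 in Flt3-ITD, 14.9 and 15.7 in DM, 11.5 and 7.6 in neutrophils and 6.8 and 7.0 in WT HSPCs.

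**Figure D3:**
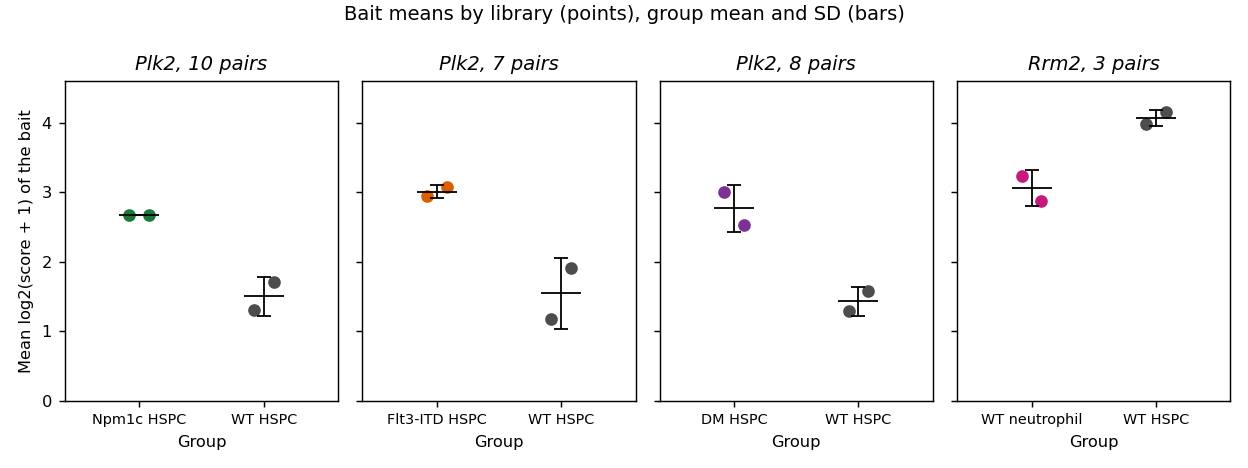
Mean of log2(score + 1) over the usable pairs of a bait, 1 point per library, for Plk2 in Npm1c, Flt3-ITD and DM each beside WT HSPCs, and for Rrm2 in neutrophils beside WT HSPCs. The mutant points of Plk2 lie above both WT points in each comparison (2.67 and 2.67 in Npm1c against 1.31 and 1.70 in WT), and both neutrophil points of Rrm2 (3.24 and 2.87) lie below both WT points.

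Ttk, the kinase that starts the spindle checkpoint, had 5 contacts in Npm1c, 4 in Flt3-ITD, 4 in DM, 2 in neutrophils and 1 in WT HSPCs. Its HSPC pairs lay mostly 1853 to 1920 kb away, in a stretch that holds Ibtk. The Ttk pair with chr9:85708260-85712706 scored 16.3 and 15.9 in Npm1c, 7.4 and 10.9 in Flt3-ITD, 1.2 and 3.3 in DM and 0 and 0.9 in WT HSPCs. It was high in both single mutants and low in DM and WT HSPCs. The difference to WT HSPCs was 3.62 in Npm1c (SE 0.46, limma adjusted p = 0.0244) and 2.84 in Flt3-ITD (SE 0.46, limma adjusted p = 0.0481). The Ttk bait as a whole averaged 2.44 and 2.15 in Npm1c, against 1.88 and 1.00 in WT HSPCs, a difference of 0.86 (SE 0.31, limma adjusted p = 0.848).

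Aurka, the Aurora kinase of centrosome and spindle, stood out by the number of its contacts in neutrophils, 23 against 2 in WT HSPCs. The WT HSPC libraries differed: of the 8 HSPC pairs of Aurka, 7 were at 5 or more in replicate 1 and 2 in replicate 2. Its bait also holds Cstf1. Npm1c had 5 contacts at this bait, Flt3-ITD 6 and DM 6. In the stretch 33 to 116 kb from the bait towards higher coordinates, which holds Cass4, Rtf2, Gcnt7 and Fam209, neutrophils had 18 contacts and WT HSPCs 0, while Npm1c had 3, Flt3-ITD 4 and DM 5. The Aurka pair with a Gcnt7 fragment at 84 kb scored 17.1 and 18.5 in neutrophils, against 6.5 and 4.4 in WT HSPCs. Only 5 of these 18 pairs were in the HSPC list, and over these the mean WT HSPC score was 6.03 in replicate 1 and 3.80 in replicate 2. Aurka had too few usable pairs for the bait test of neutrophils, and was not called in the mutant comparisons.

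The other kinases and checkpoint genes had few contacts. Aurkb, the Aurora kinase of the centromere, had 2 in Npm1c, 5 in Flt3-ITD, 2 in DM, 1 in neutrophils and 4 in WT HSPCs. Plk1, Bub1 and Bub1b, a mitotic kinase and a pair of checkpoint proteins, had 0 to 3 in any group. Cdc20, the activator of the anaphase-promoting complex, was covered only at its far end, on a bait that also holds Elovl1. That bait had 1 pair, with chr4:106325103-106329195 at 12.1 Mb, which scored 9.3 and 8.0 in Flt3-ITD and 0 in each of the other 6 HSPC libraries. The difference in Flt3-ITD was 3.26 on the log2 scale, but the pair is listed only because Flt3-ITD scored it.

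Single pairs were tested in 1 fit of the 8 HSPC libraries over 88421 pairs, and in the 4 WT libraries over 14051 pairs for neutrophils. Of the 457 cell cycle pairs 1 was called higher and 1 lower in Npm1c, beside 0.225% and 0.0848% of all pairs. In Flt3-ITD HSPCs 3 were called higher and 1 lower, beside 0.477% and 0.0905%, and in DM HSPCs 2 higher and 1 lower, beside 0.42% and 0.156%. Of the 93 pairs in both lists none was called in neutrophils by limma, beside 0.206% of all pairs called higher and 0% called lower. At an unadjusted p under 0.05, 23 of the 93 were higher and 2 lower in neutrophils, beside 17.8% and 2.1% of all pairs. Pairs enter the list by their own scores, which inflates these differences, and for the called pairs of Cdc20 and Mcm3, 1 of Mcm6 and 1 of Plk2 the group that is high was the only one that brought the pair in. For these no p is given, since the call repeats the selection. Each call on a cell cycle pair in the mutants was lost when any 1 of the 4 libraries compared was left out. In neutrophils some cell cycle pairs were called when a WT HSPC library was left out, as were pairs of other baits. Such a fit rests on 1 WT HSPC library. Without WT HSPC replicate 1 the difference at the Aurka pair with Gcnt7 was 1.79. Under quantile normalization the calls among all pairs moved from 199 higher and 75 lower to 150 and 98 in Npm1c, from 422 and 80 to 279 and 169 in Flt3-ITD, and from 371 and 138 to 192 and 151 in DM. A further test kept only contacts of an HSPC group outside the comparison, or, for neutrophils, contacts of both WT cell types. Such pairs can also be contacts of the groups compared. In that test no cell cycle pair was called in any comparison.

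The CDKs and cyclins, with 8 baits, held 22 contacts in Npm1c, 21 in Flt3-ITD, 20 in DM, 7 in neutrophils and 19 in WT HSPCs. Ccne1 and Ccne2 encode the E-type cyclins, partners of Cdk2 at the start of S phase. Ccne1 had 7 contacts in Npm1c, 6 in Flt3-ITD, 0 in DM, 1 in neutrophils and 2 in WT HSPCs. Most of them lay within 125 kb on the side of Uri1. In DM, 0 of the 9 HSPC pairs of Ccne1 were at 5 or more in replicate 1 and 4 in replicate 2. Ccne2 had 7, 9 and 11 in Npm1c, Flt3-ITD and DM, 3 in neutrophils and 6 in WT HSPCs. Its bait averaged 2.66 and 2.94 in Flt3-ITD over 14 usable pairs, against 2.46 and 2.03 in WT HSPCs. Both Flt3-ITD libraries were higher, by 0.55 (SE 0.21, limma adjusted p = 0.1998). The 1 Ccne2 contact shared by all 5 groups reached Plekhf2 at 183 kb and scored 10.4 and 12.5 in Npm1c, 10.5 and 9.5 in Flt3-ITD, 9.1 and 7.4 in DM, 10.5 and 11.0 in neutrophils and 16.6 and 8.3 in WT HSPCs.

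Cdk2, the kinase of these cyclins, had 6 contacts in Npm1c, 5 in Flt3-ITD, 2 in DM, 3 in neutrophils and 7 in WT HSPCs. In HSPCs most came from the bait at the far end of the gene, chr10:128691795-128701691, which also holds Pmel and Rab5b. That bait averaged 2.33 and 2.33 in DM over 7 usable pairs, against 2.99 and 2.77 in WT HSPCs. Both DM libraries were lower, by -0.55 (SE 0.22, limma adjusted p = 0.219). Cdk1, the mitotic CDK, and the B-type cyclins Ccnb1 and Ccnb2 had 0 to 4 contacts in any group.

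Of the CDK inhibitors, Cdkn1b (p27) had 6 contacts in Npm1c, 5 in Flt3-ITD, 1 in DM, 3 in neutrophils and 4 in WT HSPCs, and Cdkn2c (p18) had 3, 3, 0, 1 and 0. The Cdkn1b bait averaged 3.06 and 2.90 in neutrophils over 3 usable pairs, against 3.52 and 3.20 in WT HSPCs. Both neutrophil libraries were lower, by -0.38 (SE 0.19, limma adjusted p = 0.266). Of the E2F factors, E2f8, a repressor, had 8 contacts in Npm1c, 2 in Flt3-ITD, 3 in DM, 2 in neutrophils and 6 in WT HSPCs, mostly towards Zdhhc13, and the activator E2f1 had 0 to 4 in any group.

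The nucleotide supply genes had the most contacts per bait. Rrm2 encodes the small and Rrm1 the large subunit of ribonucleotide reductase, the enzyme that makes deoxynucleotides. Rrm2 had 52 pairs in the HSPC list, more than 99.2% of the 12170 baits of that list, and it had 33 contacts in Npm1c, 30 in Flt3-ITD, 20 in DM, 3 in neutrophils and 38 in WT HSPCs. Of these pairs 45 fell in 1 stretch, chr12:24809937-25033846, which lies 103 to 322 kb from the bait and holds Mboat2 and Kidins220. In that stretch Npm1c had 32 contacts, Flt3-ITD 25, DM 20, neutrophils 3 and WT HSPCs 37. Over the 45 pairs the mean score was 8.29 and 9.74 in Npm1c, 8.50 and 8.21 in Flt3-ITD, 6.40 and 7.13 in DM and 8.58 and 10.1 in WT HSPCs. Both DM libraries were below the other 6. The scores of these same groups selected the pairs, and fewer of the pairs were contacts of DM than of any other HSPC group.

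In neutrophils Rrm2 fell. Its 3 pairs shared with WT HSPCs lay at 229, 255 and 270 kb, and the one at 255 kb holds an end of Mboat2. The first scored 5.3 and 6.4 in neutrophils, against 16.2 and 13.5 in WT HSPCs, and the one at Mboat2 10.3 and 6.2, against 17.2 and 17.1. The last scored 10.8 and 6.4 in neutrophils, against 11.7 and 20.6 in WT HSPCs. Each neutrophil score was below both WT HSPC scores of its pair. On the log2 scale the bait averaged 3.06 ± 0.26 in neutrophils and 4.07 ± 0.12 in WT HSPCs (SD, n = 2 each), a difference of -1.02 (SE 0.19, limma adjusted p = 0.0111). The call was lost without neutrophil replicate 2 (adjusted p = 0.0964), WT HSPC replicate 1 (0.177) or WT HSPC replicate 2 (0.254).

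In the mutants the Rrm2 bait did not pass the test. It averaged 3.23 and 3.36 in Npm1c over 30 usable pairs, against 3.09 and 3.24 in WT HSPCs, and 3.23 and 3.25 in Flt3-ITD over 35, against 3.21 and 3.46 in WT HSPCs. These groups overlapped, and both differences changed sign under another setting. In DM HSPCs it averaged 2.75 and 2.82 over 42 usable pairs, against 3.03 and 3.17 in WT HSPCs. Both DM libraries were lower, by -0.32 (SE 0.15, limma adjusted p = 0.303). Without Rrm2 the cell cycle genes had 174 contacts in Npm1c, 232 in Flt3-ITD, 184 in DM, 155 in neutrophils and 148 in WT HSPCs, so neutrophils then had more contacts than WT HSPCs.

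**Figure D4:**
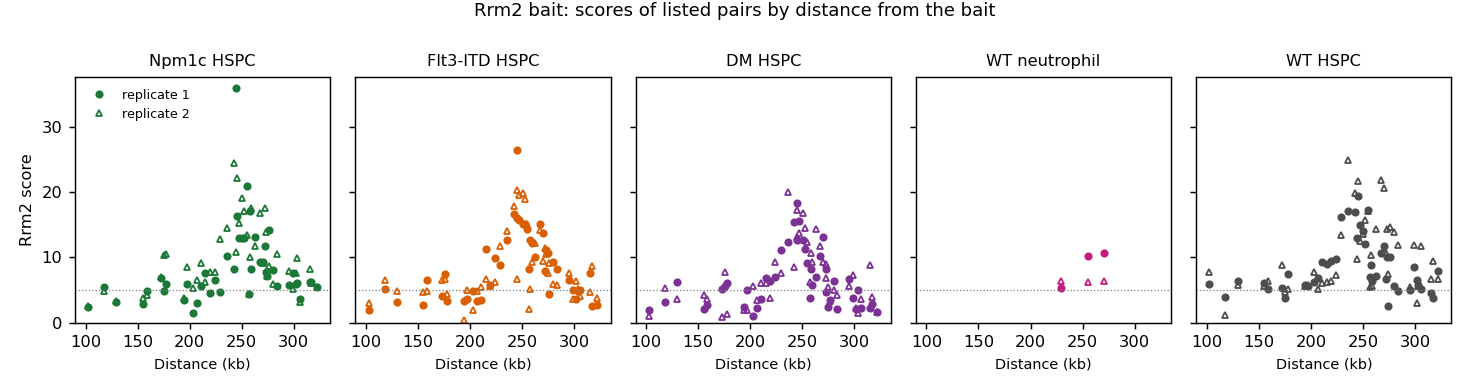
Scores of the Rrm2 bait with the fragments of the stretch 103 to 322 kb away and just beside it. Each group has 1 panel and each replicate 1 marker shape, and the dotted line marks a score of 5. The Npm1c, Flt3-ITD, DM and WT HSPC panels hold 32, 25, 20 and 37 contacts in the Mboat2 and Kidins220 stretch, and the neutrophil panel, which shows listed pairs only, holds 3.

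Rrm1 had nearly equal numbers of contacts in all HSPC groups, 27 in Npm1c, 29 in Flt3-ITD, 26 in DM and 27 in WT HSPCs, and 20 in neutrophils. All lay 132 to 405 kb away in a stretch that holds Nup98, Pgap2, Rhog, Stim1, Art1 and Chrna10, and 12 were contacts of all 5 groups. Its bait averaged 3.21 and 3.19 in neutrophils over 15 usable pairs, against 3.19 and 3.16 in WT HSPCs, a difference of 0.03 (SE 0.14, limma adjusted p = 0.9296) that was -0.23 after quantile normalization. The neutrophil differences were thus -1.02 at Rrm2 and 0.03 at Rrm1, and the difference between these values was not tested.

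Origin licensing and fork genes, with 11 baits, held 56 contacts in Npm1c, 83 in Flt3-ITD, 62 in DM, 47 in neutrophils and 49 in WT HSPCs. Among the MCM helicase subunits, Mcm6 had 7 contacts in Npm1c, 10 in Flt3-ITD, 12 in DM, 18 in neutrophils and 7 in WT HSPCs. Most lay 408 to 483 kb away in fragments with no gene start or end, where neutrophils had 16 contacts and WT HSPCs 7. The Mcm6 bait averaged 3.85 and 4.12 in neutrophils over 7 usable pairs, against 3.58 and 3.00 in WT HSPCs. Both neutrophil libraries were higher, by 0.70 (SE 0.20, limma adjusted p = 0.0667).

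A further Mcm6 pair reached the fragment that holds an end of Cxcr4, the receptor that retains cells in the marrow, at 234 kb. It scored 6.1 and 4.4 in Npm1c, 5.5 and 4.6 in Flt3-ITD, 5.2 and 5.9 in DM, 6.5 and 9.1 in neutrophils and 3.2 and 4.1 in WT HSPCs. It was thus a contact of DM and neutrophils only among the 5 groups, but DM alone brought it into the HSPC list. The Mcm6 pair with chr1:128788260-128789305, at 431 kb, scored 2.7 and 3.3 in Npm1c, 0.6 and 1.5 in Flt3-ITD, 8.7 and 6.9 in DM and 0 and 0 in WT HSPCs. Both DM libraries were above the other 6, and the difference to WT HSPCs was 3.12, but DM alone brought the pair into the list.

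Mcm5 had 34 pairs in the HSPC list and 10 contacts in Npm1c, 27 in Flt3-ITD, 15 in DM, 10 in neutrophils and 10 in WT HSPCs, all but 1 pair within 157 kb among Hmgxb4, Tom1, Hmox1 and Rasd2. Its bait averaged 2.67 and 3.03 in Flt3-ITD over 21 usable pairs, against 2.36 and 2.46 in WT HSPCs. Both Flt3-ITD libraries were higher, by 0.44 (SE 0.18, limma adjusted p = 0.233). Mcm3 had 9, 5 and 5 contacts in Npm1c, Flt3-ITD and DM, 0 in neutrophils and 4 in WT HSPCs. Its bait averaged 2.73 and 2.99 in Npm1c over 8 usable pairs, against 2.31 and 2.14 in WT HSPCs, a difference of 0.63 (SE 0.24, limma adjusted p = 0.848). A single Mcm3 pair with chr1:88276241-88278577, which holds an end of Hjurp 67.5 Mb away, scored 0 in all 6 mutant libraries and 32.7 and 12.0 in WT HSPCs. The difference was -4.39 on the log2 scale in each mutant group, against the same 2 WT HSPC libraries, and the pair is listed only because they scored it.

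Mcm2, Mcm4 and Mcm7, the remaining MCM subunits among these genes, had 0 to 5 contacts in any group, with 5 for Mcm2 in Npm1c and 5 in Flt3-ITD. Cdc6, the loader of the helicase, had 8 contacts in Npm1c, 14 in Flt3-ITD, 17 in DM, 6 in neutrophils and 9 in WT HSPCs over its 2 baits, all within 252 kb. Its partner Cdt1 had 0 to 2. Gins2, a subunit of the active helicase, had 11, 8 and 2 in Npm1c, Flt3-ITD and DM, 0 in neutrophils and 7 in WT HSPCs. Pcna, the sliding clamp, had 6, 11 and 7, then 8 in neutrophils and 7 in WT HSPCs. Its pair with a Prnp fragment at 343 kb was a contact in every group, with 17.3 and 21.3 in Npm1c, 8.0 and 18.5 in Flt3-ITD, 6.2 and 14.9 in DM, 11.8 and 15.7 in neutrophils and 16.6 and 15.9 in WT HSPCs.

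Chromosome, spindle and midzone proteins, with 10 baits, held 32 contacts in Npm1c, 61 in Flt3-ITD, 44 in DM, 46 in neutrophils and 34 in WT HSPCs. Mki67, the proliferation marker Ki-67, which coats mitotic chromosomes, had 6 in Npm1c, 12 in Flt3-ITD, 0 in DM, 26 in neutrophils and 8 in WT HSPCs. All lay within 207 kb on the side of Ptpre and Clrn3. In DM, 0 of the 20 HSPC pairs of Mki67 were at 5 or more in replicate 1 and 7 in replicate 2. Its pair with a Ptpre fragment at 177 kb scored 20.6 and 14.5 in neutrophils, against 14.0 and 3.9 in WT HSPCs. Both neutrophil scores were above both WT HSPC scores. Over its 5 usable pairs the Mki67 bait averaged 3.69 and 3.04 in neutrophils, against 2.96 and 3.14 in WT HSPCs. These groups overlapped, and the difference was 0.32 (SE 0.21, limma adjusted p = 0.422). Without neutrophil replicate 1 the difference was -0.01, so its direction rests on that library.

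In DM HSPCs, where Mki67 had no contact, its bait averaged 2.18 and 2.304 over 16 usable pairs, against 2.53 and 2.46 in WT HSPCs. Both DM libraries were lower, by -0.25 (SE 0.18, limma adjusted p = 0.487). Without Aurka and Mki67 the cell cycle genes had 109 contacts in neutrophils and 176 in WT HSPCs.

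**Figure D5:**
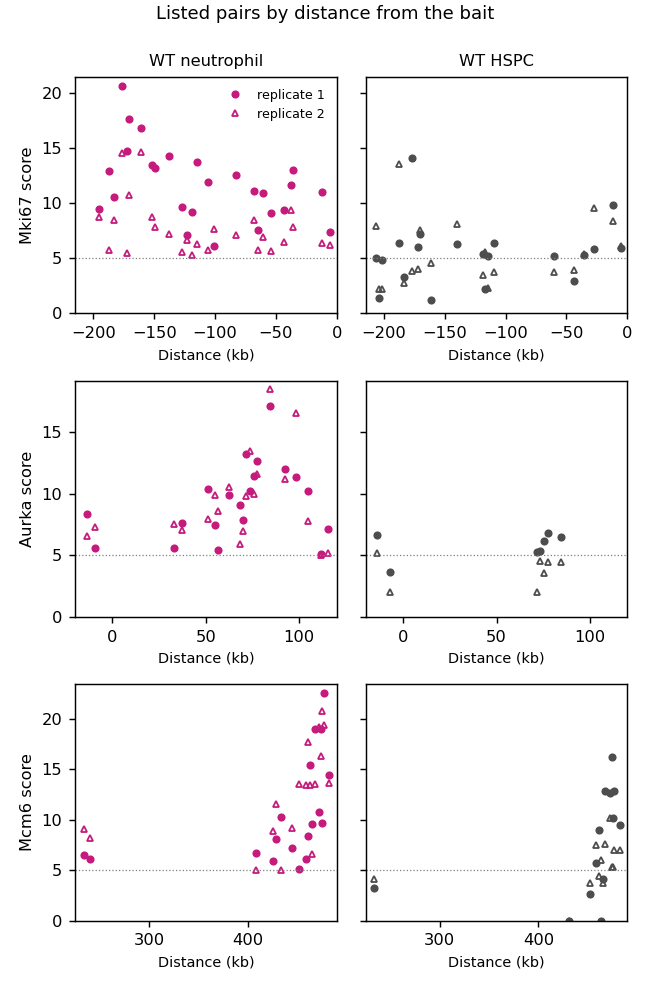
Scores of the Mki67, Aurka and Mcm6 baits against the distance to the other end, with neutrophils left and WT HSPCs right and both replicates shown; the dotted line marks a score of 5. Neutrophils have 26, 23 and 18 contacts at these baits and WT HSPCs 8, 2 and 7; pairs outside a cell type's list have no score there.

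Kif20a, a kinesin of the midzone, shares its bait with Brd8 and Cdc23, and had 9 contacts in Npm1c, 26 in Flt3-ITD, 17 in DM, 10 in neutrophils and 11 in WT HSPCs. In the stretch of Matr3, Paip2 and Slc23a1, 940 to 989 kb away, it had 3 in Npm1c, 14 in Flt3-ITD, 7 in DM, 0 in neutrophils and 4 in WT HSPCs. Its bait averaged 2.76 and 2.88 in Flt3-ITD over 23 usable pairs, against 2.57 and 2.296 in WT HSPCs, a difference of 0.39 (SE 0.18, limma adjusted p = 0.266). Tpx2, an activator of Aurora A, had 4 in Npm1c, 4 in Flt3-ITD, 6 in DM, 5 in neutrophils and 1 in WT HSPCs, all 154 to 193 kb away. Cenpf, a kinetochore protein, had 6, 3 and 7, then 0 in neutrophils and 7 in WT HSPCs, mostly near Smyd2. Birc5 (survivin) had a single pair, in neutrophils, and Cenpe, Kif23 and Prc1 had 0 to 2 contacts in any group.

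Top2a, the topoisomerase that untangles DNA before division, had 6 contacts in Npm1c, 13 in Flt3-ITD, 10 in DM, 3 in neutrophils and 6 in WT HSPCs over its 2 baits. The promoter bait averaged 2.79 and 2.65 in DM over 9 usable pairs, against 2.27 and 1.77 in WT HSPCs. Both DM libraries were higher, by 0.70 (SE 0.23, limma adjusted p = 0.1499). Top2a and Cdc6 lie 113 kb apart, and theirs was the only listed pair between baits of different cell cycle genes. It scored 4.9 and 6.3 in Npm1c, 5.0 and 4.9 in Flt3-ITD, 6.5 and 6.4 in DM, 5.9 and 11.4 in neutrophils and 6.9 and 4.8 in WT HSPCs. It was a contact of DM and neutrophils, and in the other groups 1 replicate each lay just under 5. DM alone brought it into the HSPC list. The far end and the promoter of Top2a, 25.5 kb apart, scored 5.5 and 6.2 in Npm1c, 5.9 and 5.5 in Flt3-ITD, 3.9 and 2.8 in DM and 6.2 and 6.3 in WT HSPCs, lowest in both DM libraries.

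Of 102 further cell cycle genes outside the 46, 82 had a bait. Among their baits tested, 44 in Npm1c, 42 in Flt3-ITD, 46 in DM and 5 in neutrophils, 1 was called. It was Pttg1, the securin that holds sister chromatids together until anaphase. Pttg1 averaged 3.44 and 3.43 in Flt3-ITD over 4 usable pairs, against 1.55 and 0.82 in WT HSPCs. Both Flt3-ITD libraries were higher, by 2.25 (SE 0.29, limma adjusted p = 0.0336); the adjusted p was 0.0033 to 0.0186 with 1 library left out, but 0.115 with a pseudocount of 0.5, 0.12 without the variance trend and 0.258 with a minimum of 1 usable pair. In neutrophils the smallest p was at Incenp, the scaffold of the Aurora B complex, which averaged 3.53 and 3.35, against 4.12 and 4.00 in WT HSPCs. Both neutrophil libraries were lower, by -0.62 (SE 0.18, limma adjusted p = 0.0766; 0.0159 after quantile normalization).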

How the data were processed

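Per the labels' protocols, cells were crosslinked in 1% formaldehyde for 10 minutes, digested with HindIII and captured with promoter probes. The build was mm10 per the submitters' processing notes; the aligner is not given in the sources used here, nor is the interaction caller. The deposited score is an interaction score per pair and library; its definition and baseline are not stated. No counts were given, so depth is unknown and no counting interval can be given; only the spread between 2 replicates limits precision.

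Genes were assigned with the protein-coding genes of the RefSeq GRCm38.p6 table, so other kinds of gene are not named. Of the 43 cell cycle baits, 5 hold only the end of a gene away from its promoter, and several hold another gene. For the baits of Ccne2, Aurkb, Mcm4, Gins2, Kif20a and Tpx2 there was no RefSeq promoter entry to check. These baits stayed in the counts without far-end baits. Scores entered as log2(score + 1). For baits the test was limma 3.58.1 (R 4.3.3; eBayes, two-sided) in the 4 libraries compared, with a variance trend on the number of usable pairs, and adjusted over all baits; pairs in 1 fit. The method was tested on simulated data. Alternatives were quantile normalization, other pseudocounts and pair minimums, no trend, all listed pairs, a replicate block, each library left out, and higher thresholds. Deviations of same-numbered replicates correlated at -0.0124 to 0.0613 over all pairs, and at -0.0118 to 0.0774 over pairs selected by other groups. The main test therefore used no pairing. Whether equal numbers mark a shared preparation was not tested.

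The 46 genes, the further pathway genes and the tests were chosen with earlier results of these data known. Statistics are given in full for called genes and pairs, the 3 smallest p-values per comparison, the 5 genes with most pairs and contacts between these genes. Other single pairs and stretches were picked as examples after their values were seen. Stretches join fragments under 100000 bases apart.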

Additional observations from a re-analysis of the deposited data

How the results depend on the processing

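No called bait or pair changed direction. Among named baits that were not called, Rrm2 in Npm1c (0.13) was -0.036 after quantile normalization and -0.039 with all listed pairs, Rrm2 in Flt3-ITD (-0.10) ranged from -0.22 to 0.028 without 1 library, the highest without WT HSPC replicate 2, Rrm1 in neutrophils (0.03) was -0.23 after quantile normalization, and Mki67 in neutrophils (0.32) ranged from -0.012 without neutrophil replicate 1 to 0.64 without neutrophil replicate 2. Baits called in DM numbered 11, against 1202 with all listed pairs, 277 with a replicate block, 105 with at least 10 usable pairs and no trend, and 0 with pseudocount 0.5, at least 1 pair or no trend; leaving out a library gave 0 to 96 (96 without WT HSPC replicate 1). In Flt3-ITD 3 were called, against 460 with all listed pairs, 0 with the block, 143 with at least 10 pairs and no trend, 0 with pseudocount 0.5, 1 with at least 1 pair and 0 without trend, and 15 to 651 with a library left out (651 without WT HSPC replicate 1). In Npm1c 0 were called, 4 with all listed pairs, 3 with at least 10, and 0 to 17 with a library left out (17 without Npm1c replicate 2). In neutrophils 30 were called, 305 with all listed pairs, 91 with the replicate block, 16 with at least 10, 146 after quantile normalization, and 0 to 30 with a library left out (0 without either WT HSPC replicate). A sample left alone in its group is assumed to vary like the other group.

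For cell cycle baits, all listed pairs called 2 of 33 in DM (Plk2, Mcm6), 2 of 33 in Flt3-ITD (Plk2, Mcm4) and 5 of 13 in neutrophils (Mcm6, Aurka, Rrm2, Mki67, Tpx2), where the groups compared selected the pairs and 1202, 460 and 305 of all 7678, 7678 and 1539 baits were called. The replicate block called 1 in DM (Plk2) and 2 in neutrophils (Rrm2, Mcm6), and ended the Pttg1 call in Flt3-ITD (adjusted p = 0.297), quantile normalization 2 in neutrophils (Rrm2, Cdkn1b), and at least 10 pairs 1 in Npm1c (Plk2) and 0 in neutrophils, where Rrm2 has too few. Leaving out a library called 0 to 4 in Flt3-ITD (4 without WT HSPC replicate 1: Plk2, Ttk, Bub1, Ccne2) and 0 to 1 in neutrophils.

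Pairs called numbered 274 in Npm1c, 502 in Flt3-ITD, 509 in DM and 29 in neutrophils. With only contacts of an HSPC group outside the comparison, or of both WT cell types for neutrophils, they were 0, 12, 1 and 0. The replicate block gave 287 in DM, and quantile normalization 0 in neutrophils. Leaving out a library gave 0 in Npm1c and DM, 0 to 3 in Flt3-ITD and 0 to 623 in neutrophils (623 without WT HSPC replicate 1 and 75 without replicate 2); no cell cycle pair of the text passed in any of these mutant comparisons. Contacts at a score of 7 were 65 in Npm1c, 90 in Flt3-ITD, 68 in DM, 62 in neutrophils and 62 in WT HSPCs, and at 10 they were 25, 23, 19, 21 and 18. Relative to WT HSPCs the ratios at 7 for Npm1c, Flt3-ITD, DM and neutrophils were 1.05, 1.45, 1.10 and 1.0. Over all baits they were 1.34, 1.75, 1.55 and 0.89. At 10 the ratios were 1.39, 1.28, 1.06 and 1.17, beside 1.65, 2.25, 1.79 and 0.95 over all baits. The counts without Rrm2, without Aurka and Mki67 and without far-end baits were chosen after seeing the data; the last were 195, 246, 190, 154 and 171. The causes of these differences were not tested. With no depth given, a pair listed at 0 cannot be told from one with too few reads.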

Other observations

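A pair of long-range contacts, chosen after their values were seen, joined cell cycle genes to named partners. The Cdkn1b bait paired with a fragment that holds an end of Etv6, an ETS factor of haematopoiesis, at 878 kb. It scored 10.7 and 10.2 in Npm1c, 1.6 and 6.9 in Flt3-ITD, 6.9 and 3.3 in DM and 0 and 1.2 in WT HSPCs. It was a contact of Npm1c alone among the HSPC groups, but Npm1c alone brought the pair into the list. The Cdk2 promoter bait paired with the fragment of Cdk4, Marchf9 and Tspan31, 1646 kb away, at 0 and 1.2 in Npm1c, 3.7 and 9.5 in Flt3-ITD, 6.3 and 2.9 in DM and 6.2 and 7.7 in WT HSPCs. Only WT HSPCs had it as a contact, but they alone brought the pair into the list. Cdk4 had no bait of its own, so this is its single value here.

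Among the neutrophil markers, the DM contacts were held mostly by Mmp8, a collagenase of neutrophil granules, with 5 in Npm1c, 11 in Flt3-ITD, 27 in DM, 24 in neutrophils and 6 in WT HSPCs. Retnlg did not share this, with 0 in each mutant, 22 in neutrophils and 0 in WT HSPCs, and S100a8 had 8 in Npm1c, 6 in Flt3-ITD, 7 in DM, 6 in neutrophils and 8 in WT HSPCs.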
